A study of Homo sapiens with 4 samples.

Results

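The genes described here encode the enzymes of the DNA replication fork. They are the subunits of the replicative polymerases alpha, delta and epsilon, the sliding clamp PCNA and its loaders, the single-strand binding protein RPA, the CDC45 and GINS cofactors of the helicase, the enzymes that mature Okazaki fragments, the histone chaperone CAF-1 and the topoisomerase TOP1. They were chosen as a list of 37 symbols by function, with earlier results of these data known. All 37 were found by symbol among the 23615 genes of the deposited table. All 37 also passed the filter on low counts, which left 11761 genes to test.

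RNA-seq was carried out on K562 cells, an established human chronic myeloid leukaemia line, in 4 samples. For 3 h, 2 samples received 5 µM clofarabine in 0.005% DMSO and 2 received DMSO, the solvent that all samples share. Clofarabine is a purine nucleoside drug that, once phosphorylated in cells, blocks ribonucleotide reductase and is built into DNA by polymerases. The table names its libraries C0, C1, V0 and V1. C was read as clofarabine and V as vehicle, and with the letters read the other way each sign given here would turn round. Whether the samples of a group were separate cultures is not stated in the labels. The p-values given here therefore rest on the spread between these libraries alone, which may be technical.

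Fragment counts per gene summed to between 8370550 and 23888755 per library, with V0 the shallowest and C1 the deepest. The members had between 138 and 8964 fragments in a library. Each of the 9 K562 markers checked was detected in every library, and their summed FPKM lay between 46781 and 55392 in clofarabine and between 48399 and 52037 in DMSO, a sum made up mostly of globin genes. The erythroid transcription factor genes among them were lower in both clofarabine libraries than in both DMSO libraries. In counts scaled for sequencing depth (CPM), 21.3% of all tested genes lay lower in this way. GATA1 had 137 and 149.7 FPKM in clofarabine and 174 and 169 FPKM in DMSO. NFE2 had 108 and 113 FPKM in clofarabine and 141 and 144 FPKM in DMSO. KLF1 had 104 and 107 FPKM in clofarabine and 114 and 127 FPKM in DMSO. The part of these shifts in the results on fork genes was not tested. Of the markers of other cell types, MS4A1 was at 0 in every library, while CD3D lay between 29.2 and 35.3 FPKM and KRT19 between 109.9 and 121 FPKM over the 4 libraries, in ranges that overlapped between the groups. The 2 fibroblast markers summed to between 2.30 and 2.36 FPKM in clofarabine and between 2.98 and 3.13 FPKM in DMSO, without overlap. This came from COL1A2, at 2.00 and 2.25 FPKM in clofarabine and 2.78 and 2.98 FPKM in DMSO. Here too, the share of all tested genes that lay lower in this way was 21.3% by CPM. Of the members, GINS2, POLE4 and RNASEH2A are in the shortest of 10 classes of transcript length.

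At a replication fork, polymerase alpha with its primase lays down primers, polymerase epsilon extends the leading strand and polymerase delta the lagging strand. PCNA, opened and closed around DNA by replication factor C, tethers the polymerases and recruits FEN1, LIG1 and CAF-1. Many of these genes are transcribed under E2F control as cells enter S phase.

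After 3 h of clofarabine, transcripts of 6 of the 37 genes were higher than in DMSO cells and none was lower at an adjusted p under 0.05. The 6 were PCNA, RFC4 of the clamp loader, GINS2 of the helicase complex, the flap endonuclease FEN1, and both subunits of CAF-1 on the list, CHAF1A and CHAF1B. Every one of these rises was small, between 19.9% for FEN1 and 24.2% for CHAF1B. The remaining 31 genes did not pass the test, among them every subunit of polymerases alpha, delta and epsilon. Among all 11761 genes tested, 1.54% were called as higher and 1.03% as lower, or 2.57% in either direction.

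Most of the list had a positive fold change. A positive log2 fold change (clofarabine over DMSO) was found for 31 of 37 genes, or 26 with library sizes alone as the scaling, where 50.6% of all tested genes had a positive one. The median log2 fold change was 0.14 over the 37 genes and 0.0020 over all tested genes. Without C1 it was 0.078 over the 37 genes and −0.0031 over all tested genes, and without C0 it was 0.18 and −0.0029. Both clofarabine libraries lay above both DMSO libraries for 23 of the 37 genes, where 22.0% of all tested genes did so. For POLD2, GINS1 and CHTF18 both clofarabine libraries lay below both DMSO libraries, a pattern shown by 21.3% of all tested genes, and for the other 11 the groups overlapped. An unadjusted p under 0.05 was reached by 15 of the 37 genes, all with a positive fold change, where 14.2% of all tested genes reached it in either direction. A log2 fold change of 0.25 or more was found for 10 of the 37 genes, where 10.2% of all tested genes had one, and no member changed by 1.5-fold. The clofarabine libraries also differed from each other. C1 stood above C0 for 26 of the 37 genes, and V1 stood above V0 for 16. Over all 37 genes the median difference was 2.70% for C1 over C0 and −0.667% for V1 over V0. Over all tested genes the chi-square per degree of freedom, which grows with depth, was 6.97 between C0 and C1. It was 2.78 between V0 and V1 and 4.18 between C0 and V0. In bulk RNA a changed mix of cells and more transcript per cell cannot be told apart.

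The number of members called depended on single libraries. It was 10 without C0, 4 without C1, 1 without V0 and 0 without V1. The share of all tested genes called as higher moved too, to 3.80% without C0, 1.56% without C1, 1.48% without V0 and 0.459% without V1. Of the members, 31 had a positive log2 fold change without C0, without C1 and without V0 and 30 without V1. DESeq2 called 3 members as higher, and 0.599% of the 16865 genes it fitted, which include low-count genes filtered out before edgeR. It gave no adjusted p to 3 members, POLD3, POLD4 and CHTF18. No member was called on the log2(FPKM + 1) scale, where 0.162% of all tested genes were called as higher. The log2 fold changes of the 6 genes stayed between 0.20 and 0.38 under all alternatives.

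**Figure D1:**
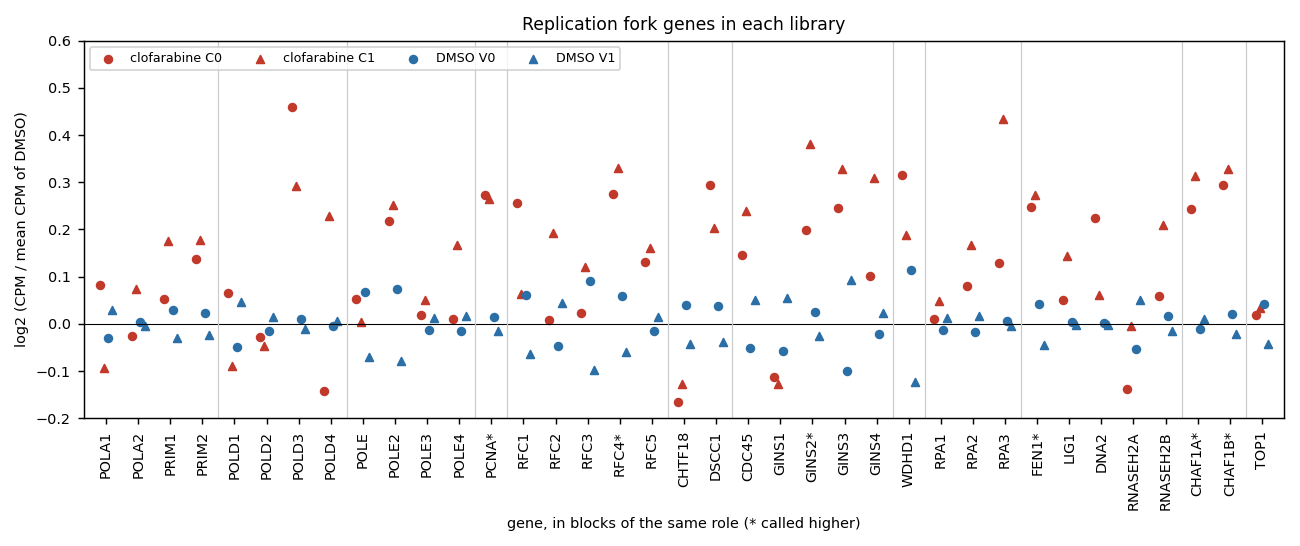
Each point is the level of a gene in a library (CPM, counts scaled for sequencing depth) relative to the mean of the DMSO libraries, on the log2 scale, for 37 genes in blocks of the same role. Clofarabine points are red and DMSO points blue, and both red points lie above both blue points for 23 genes.

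**Figure D2:**
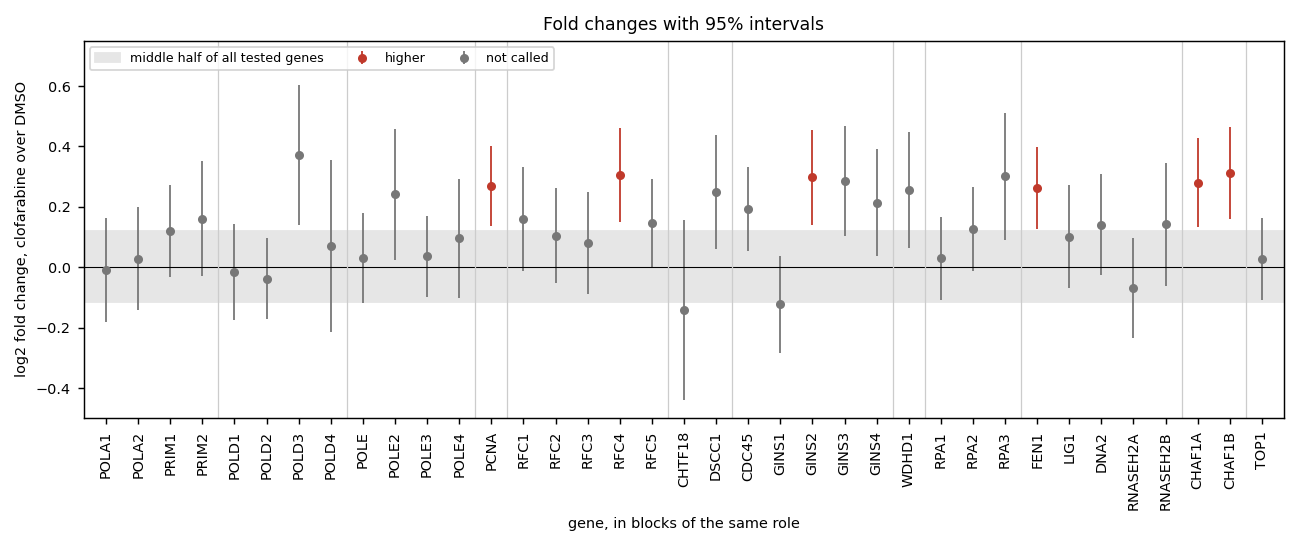
Points are log2 fold changes (clofarabine over DMSO) from edgeR and bars are 95% intervals. The 6 genes called as higher are red, and the grey band is the interquartile range of all tested genes. PCNA, RFC4, GINS2, FEN1, CHAF1A and CHAF1B lie between 0.26 and 0.31, while POLA1, POLD1 and POLE lie near 0.

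To see what the promoters of these genes share, the bases from 250 before to 50 after each RefSeq transcript start (GRCh38.p14) were searched on both strands for the E2F consensus TTTNNCGC, with each N being C or G, and for the CCAAT box, a site of NF-Y. Such windows were at hand for 31 of the 37 genes and not for DNA2, DSCC1, GINS4, POLD3, RPA2 and RPA3. The stretches of 120 bases that end at the transcript start are given for a pair of called genes with an E2F match (PCNA and GINS2), a pair with a match that were not called (POLA2 and POLE) and a pair of called genes without a match (CHAF1B and FEN1). They run in the direction of transcription, and capitals mark E2F and CCAAT matches on either strand.
PCNA (chr20:5126623-5126742, minus strand): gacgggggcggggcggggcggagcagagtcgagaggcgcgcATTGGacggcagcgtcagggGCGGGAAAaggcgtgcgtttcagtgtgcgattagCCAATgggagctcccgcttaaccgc
GINS2 (chr16:85688955-85689074, minus strand): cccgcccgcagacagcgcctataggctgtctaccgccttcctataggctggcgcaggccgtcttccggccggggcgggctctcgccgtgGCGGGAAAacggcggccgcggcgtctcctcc
POLA2 (chr11:65261842-65261961, plus strand): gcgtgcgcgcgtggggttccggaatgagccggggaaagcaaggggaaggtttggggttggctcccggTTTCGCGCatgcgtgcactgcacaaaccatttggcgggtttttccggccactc
POLE (chr12:132687343-132687462, minus strand): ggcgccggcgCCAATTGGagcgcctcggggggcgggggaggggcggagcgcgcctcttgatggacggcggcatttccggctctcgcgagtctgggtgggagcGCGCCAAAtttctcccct
CHAF1B (chr21:36385272-36385391, plus strand): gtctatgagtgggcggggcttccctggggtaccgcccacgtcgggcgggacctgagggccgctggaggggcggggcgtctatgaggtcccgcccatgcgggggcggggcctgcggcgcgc
FEN1 (chr11:61792791-61792910, plus strand): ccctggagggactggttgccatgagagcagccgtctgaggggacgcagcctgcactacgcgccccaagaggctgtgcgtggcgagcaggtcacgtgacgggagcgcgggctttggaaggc

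An E2F match was found in 11 of the 31 genes (35.5%), where 6.84% of the 8639 tested genes with a window held one and 3.315% of all 35116 windows did. Of the 6 called genes 2 held the match, and of the 25 others 9 did. Whether the match goes with the rises was not tested. The median log2 fold change was 0.095 for the 11 genes with a match and 0.13 for the 20 without. A CCAAT box was found in 17 of the 31 genes (54.8%), against 43.8% of tested genes with a window and 34.6% of all windows, and no E2F match overlapped a CCAAT box. A gene was counted where any of its windows held a match, and PCNA has 2 windows. The printed stretch of PCNA holds both motifs, with the E2F match beginning 59 bases before that start. Its other window holds CCAAT boxes and no E2F match. In GINS2 the E2F match begins 31 bases before the start. These are matches of letters and do not show binding.

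PCNA, the trimeric clamp that encircles DNA, was the most abundant member per length. It stood at 364 and 362 CPM in the clofarabine libraries and at 305 and 298 CPM in the DMSO libraries. The groups did not overlap, and the gap between them was larger than the difference between libraries of a group. The log2 fold change was 0.27 (SE 0.064), at an edgeR adjusted p = 0.025, a rise of 20.5% with a 95% interval of 1.10-fold to 1.32-fold. With V0 left out PCNA had a log2 fold change of 0.28 and an adjusted p of 0.154, and with V1 left out 0.25 and 0.413, so that both times the call ended. Over 14 alternatives the adjusted p ranged from 4.3e-04 to 0.413.

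Replication factor C opens PCNA with energy from ATP and is built from a large subunit, RFC1, and the small subunits RFC2 to RFC5. All 5 subunits had a positive log2 fold change, between 0.079 for RFC3 and 0.31 for RFC4, except that RFC3 stood at −0.025 without V1. RFC4 rose, at 114 and 118 CPM in the clofarabine libraries against 97.7 and 90.0 CPM in the DMSO libraries. In edgeR this was 0.31 on the log2 scale with an SE of 0.075 and an adjusted p of 0.0292. That call was lost without C1 (adjusted p = 0.0585), without V1 (adjusted p = 0.547) and with DESeq2 (adjusted p = 0.0683), within a range of 3.9e-04 to 0.547. RFC5 lay at 131 and 134 CPM in clofarabine and 118 and 121 CPM in DMSO, without overlap, but was not called (log2 fold change 0.15, edgeR adjusted p = 0.345). RFC1 lay at 103 and 89.9 CPM in clofarabine and 89.7 and 82.3 CPM in DMSO, where the lower clofarabine library almost met the higher DMSO library. RFC2 and RFC3 overlapped between the groups. The log2 fold change of RFC1 was 0.16, or 0.066 without C0, and that of RFC2 was 0.10, or 0.0036 without C1.

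CHTF18, which replaces RFC1, and DSCC1 belong to an alternative loader that acts in sister chromatid cohesion. They differed in sign, and neither was called. DSCC1 had 54.4 and 51.1 CPM in clofarabine and 45.6 and 43.2 CPM in DMSO (log2 fold change 0.25, SE 0.091, edgeR adjusted p = 0.186). CHTF18, the member with the lowest level per length, had 14.1 and 14.5 CPM in clofarabine and 16.2 and 15.3 CPM in DMSO. Its log2 fold change was −0.14 with a 95% interval of −0.44 to 0.16.

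CDC45 and the GINS complex join the MCM ring to form the active helicase. Of these 5 genes GINS2 rose, none fell and 4 were not called. GINS2 had 132 and 150.3 CPM in clofarabine and 117 and 113 CPM in DMSO, a log2 difference of 0.30 with an SE of 0.075 (adjusted p = 0.0354 in edgeR). Its clofarabine libraries differed by 13.5% in CPM, with C1 the higher. GINS2 has a short transcript, and with a trend on transcript length removed its log2 fold change was 0.25 (edgeR adjusted p = 0.0165). The call was lost without C1 (log2 fold change 0.20, adjusted p = 0.212), without V0 (adjusted p = 0.0719), without V1 (adjusted p = 0.383) and with DESeq2 (adjusted p = 0.077), over a range of 8.6e-05 to 0.383.

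The other GINS subunits differed in sign. GINS3 had 67.5 and 71.5 CPM in clofarabine and 53.1 and 60.8 CPM in DMSO (log2 fold change 0.29, edgeR adjusted p = 0.0934). GINS4 had 71.8 and 82.9 CPM in clofarabine and 65.8 and 67.9 CPM in DMSO (0.21, edgeR adjusted p = 0.239). In edgeR GINS3 passed the threshold with the trend on transcript length removed (adjusted p = 0.0308) and with a replicate block (adjusted p = 0.0086). Without C0 both were called, GINS3 at 0.32 (adjusted p = 0.0225) and GINS4 at 0.31 (adjusted p = 0.0244), while without C1 GINS4 stood at 0.099 (adjusted p = 0.729). GINS1 lay in the other direction, at 84.3 and 83.4 CPM in clofarabine and 87.6 and 94.7 CPM in DMSO (log2 fold change −0.12, 95% interval −0.28 to 0.037), and at −0.071 without V1. The ratio of GINS2 to GINS1 fragments within a library, which no scaling between libraries can change, was 1.57 and 1.80 in clofarabine and 1.34 and 1.20 in DMSO. The groups of ratios did not overlap, but this pair was chosen after its values were seen. The two-sided exact permutation test gave p = 0.333, the smallest that 2 libraries against 2 allow, so it cannot decide. CDC45 had 363 and 388 CPM in clofarabine and 317 and 340 CPM in DMSO (log2 fold change 0.19, edgeR adjusted p = 0.158). WDHD1, the human AND-1 protein that links polymerase alpha to the helicase, had 66.9 and 61.2 CPM in clofarabine and 58.2 and 49.3 CPM in DMSO (0.26, edgeR adjusted p = 0.179). Both of these were without overlap and not called. CDC45 was called without C0 (log2 fold change 0.24, adjusted p = 0.0090) and with the trend on transcript length removed (adjusted p = 0.0375), and stood at 0.14 without C1 (adjusted p = 0.294). WDHD1 was called with that trend removed (adjusted p = 0.0409), and its log2 fold change was 0.37 without V0 and 0.13 without V1.

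Okazaki fragments are primed with RNA, and FEN1 and DNA2 cut the displaced flaps, RNase H2 removes ribonucleotides and LIG1 seals the nick. FEN1 rose and the other 4 genes did not pass the test. FEN1 had 287 and 292 CPM in clofarabine and 249 and 234 CPM in DMSO, a log2 difference of 0.26 with an SE of 0.065 (adjusted p = 0.0322 in edgeR). FEN1 missed the threshold when V0 was left out (adjusted p = 0.0974) and when V1 was (log2 fold change 0.21, adjusted p = 0.585), within a range of 5.7e-04 to 0.585. LIG1 had 65.9 and 70.2 CPM in clofarabine and 63.7 and 63.4 CPM in DMSO, and DNA2 had 90.2 and 80.6 CPM in clofarabine and 77.4 and 77.1 CPM in DMSO. Both lay above DMSO in both libraries, by log2 fold changes of 0.10 for LIG1, or 0.050 without C1, and 0.14 for DNA2, or 0.061 without C0. Of the RNase H2 subunits, RNASEH2B had a log2 fold change of 0.14, or 0.058 without C1, and RNASEH2A, the catalytic one, of −0.068 (95% interval −0.23 to 0.097), with overlapping groups for RNASEH2A.

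CAF-1 is brought to the fork by PCNA and deposits new histones H3 and H4 on the daughter strands. CHAF1B had 116 and 119 CPM in clofarabine and 96.0 and 93.2 CPM in DMSO. CHAF1A had 129.9 and 136 CPM in clofarabine and 109 and 110.4 CPM in DMSO. Both rose, CHAF1B by 0.31 on the log2 scale (SE 0.073, adjusted p = 0.0216 in edgeR) and CHAF1A by 0.28 (SE 0.071, adjusted p = 0.0355 in edgeR). The ratio of CHAF1B to CHAF1A fragments was 0.893 and 0.871 in clofarabine and 0.881 and 0.844 in DMSO, with overlapping groups. For CHAF1B the adjusted p was 0.0675 with V0 left out and 0.330 with V1 left out, within a range of 2.8e-04 to 0.330. For CHAF1A it was 0.0972 with C1 left out, 0.182 with V0 left out, 0.314 with V1 left out, 0.0667 with library sizes alone and 0.0767 with DESeq2, within a range of 9.0e-04 to 0.314.

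**Figure D3:**
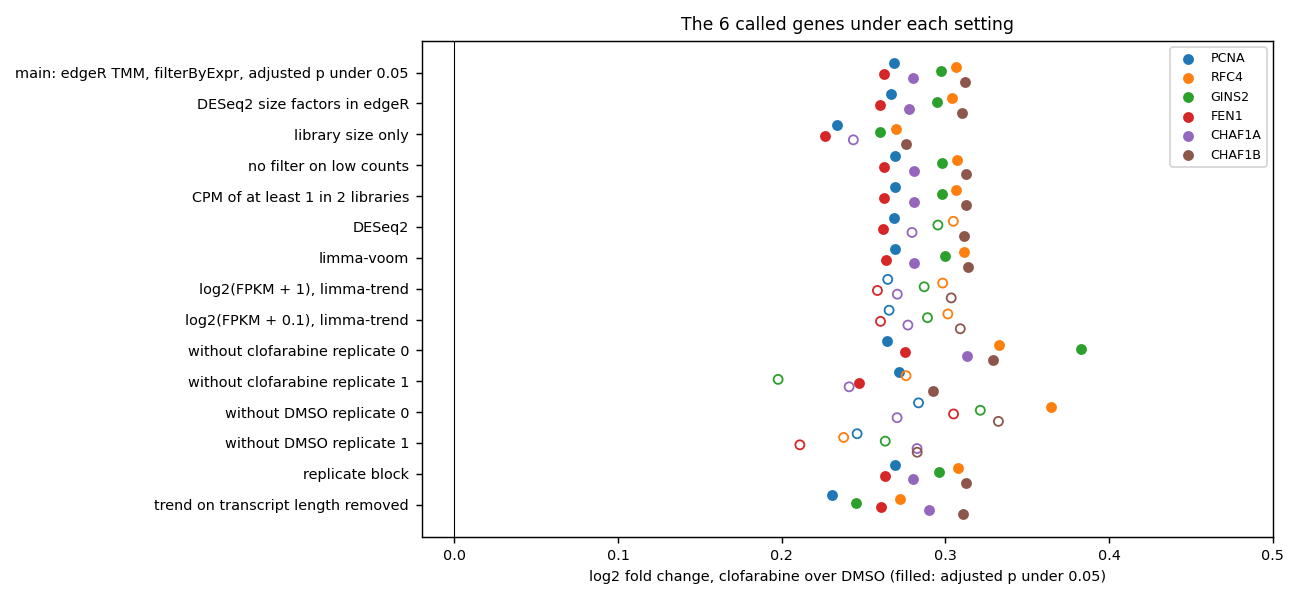
Log2 fold changes (clofarabine over DMSO) of the 6 called genes, along the horizontal axis, under the reported setting and 14 alternatives, with filled points where the adjusted p was under 0.05. All points lie between 0.20 and 0.38, and all 6 are open without V1 and on both FPKM scales.

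The catalytic subunits of the replicative polymerases gave no detectable difference. POLA1, the polymerase of the alpha complex, had 78.2 and 69.2 CPM in clofarabine and 72.3 and 75.4 CPM in DMSO. POLD1, of the delta complex, had 120.1 and 108 CPM in clofarabine and 111 and 119 CPM in DMSO. POLE, of the epsilon complex, had 139 and 135 CPM in clofarabine and 141 and 128 CPM in DMSO. The groups overlapped in each case, and the signs of these small values changed with the setting. The 95% intervals of the fold (clofarabine over DMSO) ran from 0.881 to 1.12 for POLA1, from 0.886 to 1.10 for POLD1 and from 0.921 to 1.13 for POLE. Each of these overlaps the interval of PCNA, and the difference from PCNA was not tested.

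Accessory subunits of the polymerases spread more widely, and none was called. POLD3, the delta subunit that binds PCNA and also acts in break-induced replication, had the largest log2 fold change of the 37 genes. It stood at 37.9 and 33.8 CPM in clofarabine and at 27.8 and 27.4 CPM in DMSO, 0.37 on the log2 scale (SE 0.11, adjusted p = 0.0839 in edgeR). In edgeR it passed the threshold with the trend on transcript length removed (adjusted p = 0.0294) and with a replicate block (adjusted p = 0.0119). POLD3 was called without C1 (log2 fold change 0.46, adjusted p = 0.0315) but had an adjusted p of 0.267 with C0 left out, 0.169 with V0 left out and 0.454 with V1 left out, within a range of 0.0119 to 0.454. The ratio of POLD3 to POLD1 fragments was 0.316 and 0.313 in clofarabine and 0.25 and 0.231 in DMSO, without overlap (two-sided exact permutation p = 0.333, the smallest possible). This pair too was chosen after its values were seen, and the test cannot decide. POLD2, which bridges POLD1 and POLD3, had 198 and 195 CPM in clofarabine and 199.8 and 204 CPM in DMSO (log2 fold change −0.038). POLD4, the small subunit, had 20.1 and 26.0 CPM in clofarabine and 22.1 and 22.3 CPM in DMSO, so that its clofarabine libraries lay on either side of DMSO.

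In polymerase epsilon, POLE2 had 37.5 and 38.4 CPM in clofarabine and 33.9 and 30.5 CPM in DMSO (log2 fold change 0.24, edgeR adjusted p = 0.290), and 0.15 without V1. POLE3, a histone-fold subunit shared with a chromatin remodelling complex, had 279.7 and 286 CPM in clofarabine and 274 and 278 CPM in DMSO, and its partner POLE4 had a log2 fold change of 0.095 with overlapping groups. In the primase, PRIM2 had 47.4 and 48.8 CPM in clofarabine and 43.8 and 42.4 CPM in DMSO, and the catalytic PRIM1 had 121 and 131 CPM in clofarabine and 119 and 114 CPM in DMSO. These lay above DMSO without passing the test (log2 fold changes of 0.16 for PRIM2 and 0.12 for PRIM1, or 0.052 for PRIM1 without C1). POLA2, the regulatory subunit of polymerase alpha, had a log2 fold change of 0.028 with overlapping groups. In all, ratios within a library were compared for 6 pairs of subunits chosen after their values were seen. The pair POLE2 to POLE, the pair RFC4 to RFC2 and the pair PRIM2 to POLA1 were also higher in both clofarabine libraries, by 0.21, 0.20 and 0.16 on the log2 scale, each with an exact permutation p = 0.333 before adjustment.

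RPA coats single-stranded DNA at the fork and recruits the checkpoint kinase ATR. None of its 3 subunits was called. RPA3, the smallest, had 48.4 and 59.8 CPM in clofarabine and 44.4 and 44.1 CPM in DMSO (log2 fold change 0.30, edgeR adjusted p = 0.138). Its clofarabine libraries differed by 23.6%, and the log2 fold change was 0.44 without C0, where RPA3 was called (adjusted p = 0.00112), and 0.13 without C1 (adjusted p = 0.680). RPA2, which ATR and other kinases phosphorylate, had 179 and 190.1 CPM in clofarabine and 167 and 171 CPM in DMSO (0.13, edgeR adjusted p = 0.419), and 0.078 without C1. RPA1, the main DNA-binding subunit, had 169 and 173 CPM in clofarabine and 166 and 169 CPM in DMSO, at a 95% interval of 0.928-fold to 1.12-fold. TOP1, which relaxes the supercoils ahead of the fork, had 203 and 205 CPM in clofarabine and 206 and 194 CPM in DMSO, with overlapping groups and an interval of 0.927-fold to 1.12-fold.

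Levels per transcript length were compared between genes by FPKM, as the authors computed it. The means over the 4 libraries spanned 57.1-fold. PCNA averaged 316 ± 1.48 FPKM in clofarabine and 263 ± 4.65 FPKM in DMSO (SD, n = 2 each). CDC45 came next at 215 ± 9.92 FPKM in clofarabine and 188 ± 9.10 FPKM in DMSO, while CHTF18 was lowest at 4.81 ± 0.0779 FPKM in clofarabine and 5.33 ± 0.232 FPKM in DMSO. Within polymerase delta, POLD2 stood at 129 ± 1.16 FPKM in clofarabine and 134 ± 2.63 FPKM in DMSO, and POLD3 at 9.61 ± 0.808 FPKM in clofarabine and 7.40 ± 0.0620 FPKM in DMSO. Within polymerase epsilon, POLE3 stood at 133 ± 1.88 FPKM in clofarabine and 130.3 ± 1.21 FPKM in DMSO, and POLE at 17.5 ± 0.435 FPKM in clofarabine and 17.1 ± 1.20 FPKM in DMSO. Neighbours in this order often lay within their spread, as for POLE3 and POLD2 with means over 4 libraries of 131.9 and 131.7 FPKM.

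**Figure D4:**
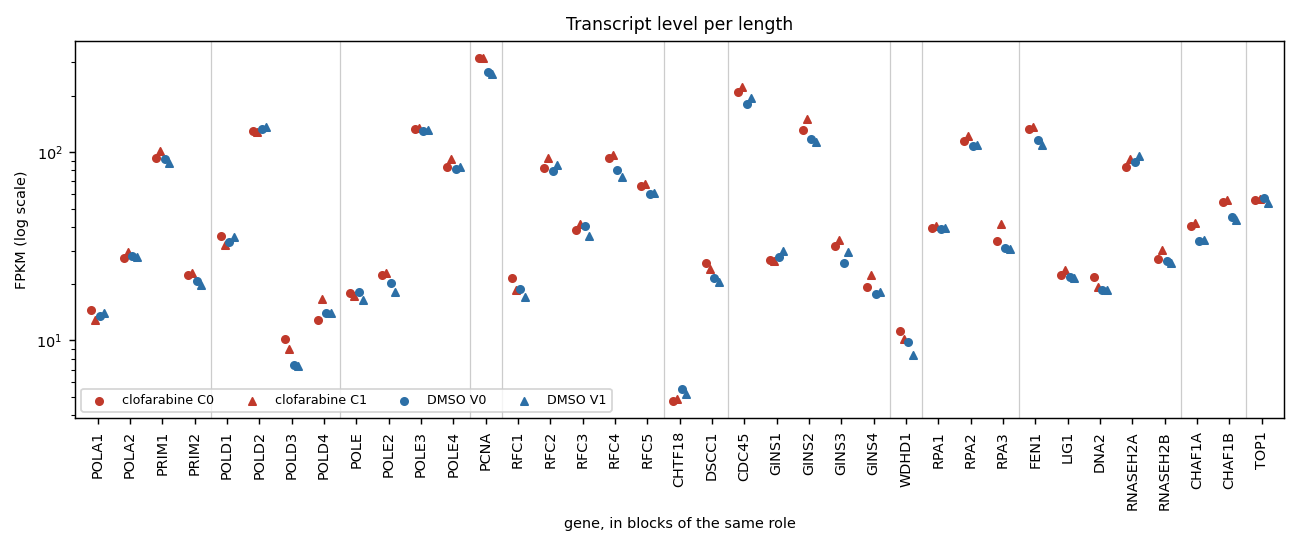
FPKM of each gene in each library, on a log axis, in blocks of the same role, with clofarabine in red and DMSO in blue. PCNA is highest and CHTF18 lowest, and within polymerase delta POLD2 lies far above POLD3 in both groups.

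A further 43 genes that act at or near the fork were counted in the same way. Their list was made by function, with earlier results of these data known. Of these 43 genes, 4 rose, 1 fell and 38 did not pass the test. Among all tested genes 1.54% were called as higher and 1.03% as lower. The median log2 fold change was 0.085, and 0.0020 over all tested genes. It was positive for 30 of the 43 genes, where 50.6% of all tested genes had a positive one. Both clofarabine libraries lay above both DMSO libraries for 21 of the 43 genes and below them for 9, and the groups overlapped for 13, where 22.0% of all tested genes lay above and 21.3% below. MCM10, which couples the helicase to polymerase alpha, had 135 and 133 CPM in clofarabine and 106 and 95.8 CPM in DMSO (log2 fold change 0.41, SE 0.074, edgeR adjusted p = 0.00233). CLSPN, a mediator of CHK1 activation that travels with the fork, had 181 and 176 CPM in clofarabine and 141 and 129.6 CPM in DMSO (0.40, edgeR adjusted p = 0.00167). RMI1, a partner of the BLM helicase, had 27.6 and 27.4 CPM in clofarabine and 18.8 and 19.9 CPM in DMSO (0.50, edgeR adjusted p = 0.0298). UHRF1, which recruits DNMT1 to newly replicated DNA, had 114 and 113 CPM in clofarabine and 96.3 and 90.5 CPM in DMSO (0.28, edgeR adjusted p = 0.0422). These 4 rises were of the size of those of the members or somewhat larger.

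TOP2A, the topoisomerase that decatenates sister chromatids and peaks in G2 and mitosis, was the gene that fell. It had 379 and 366 CPM in clofarabine and 563 and 524 CPM in DMSO (−0.54 on the log2 scale, SE 0.067, adjusted p = 2.2e-05 in edgeR), and it was called under all 14 alternatives. Without V1 none of the 4 rises was called, and the adjusted p was 0.147 for MCM10, 0.109 for CLSPN, 0.135 for RMI1 and 0.586 for UHRF1. RMI1 was also lost without V0 (adjusted p = 0.119), and UHRF1 without V0 (adjusted p = 0.0811), without C1 (adjusted p = 0.0505), with library sizes alone (adjusted p = 0.0857) and with DESeq2 (adjusted p = 0.104). Over the 14 alternatives the adjusted p ranged from 8.1e-08 to 0.147 for MCM10, from 1.7e-08 to 0.136 for CLSPN, from 0.0016 to 0.586 for UHRF1 and from 1.8e-16 to 0.0183 for TOP2A, and from 0.0020 to 0.161 for RMI1, to which DESeq2 gave none. No rise was called on either FPKM scale. Some genes that were not called are given too, chosen after their values were seen. The helicase core genes MCM2, MCM3, MCM4, MCM5, MCM6 and MCM7 each had both clofarabine libraries above both DMSO libraries, with log2 fold changes between 0.085 and 0.20, where 22.0% of all tested genes lay above in this way, and none was called. KIAA0101, the PCNA-binding protein now named PCLAF, had 281 and 284 CPM in clofarabine and 243 and 243 CPM in DMSO (0.22, edgeR adjusted p = 0.0801).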

How the data were processed

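RNA-seq of K562 cells was deposited as a table with a line for each gene and library. Per the submitters' processing notes, the authors used cutadapt 1.5, TopHat2 2.0.13 and Cuffdiff 2.2.1 with hg19. Gene annotation and strand setting: not given in the sources used here. The deposited estimated counts are Cuffdiff's raw fragments per gene, per the file headers, and were rounded to whole numbers. The deposited FPKM values, per the file headers, are fragments scaled by transcript length and depth as the authors computed them. The deposited scaled fragments, a signal per the file headers, served with FPKM to derive transcript length. The 37 members and the other lists were chosen with earlier results of these data known. Genes were named where they were members, or other fork genes past the threshold. MCM2 to MCM7 and KIAA0101, which did not pass it, are exceptions chosen after their values were seen.

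Genes were filtered with filterByExpr (minimum count 10) and tested with edgeR 4.0.16 (TMM scaling, quasi-likelihood test, Benjamini-Hochberg over 11761 genes, threshold 0.05) in R 4.3.3. CPM are scaled by TMM. Alternatives used DESeq2 1.42.0 and limma 3.58.1, other scalings and filters, log2(FPKM + 1) and log2(FPKM + 0.1), a trend on transcript length and each library left out, where the lone library of a group is taken to vary as those of the other. Only the edgeR fit was tested on simulated counts, with changes larger than those of the called members. Promoter windows are from RefSeq (GRCh38.p14), a different build from the counts, and motifs and subunit ratios were chosen after values were seen. Depth ran from 8370550 to 23888755 fragments per library, and precision at low counts is limited by it.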

Additional observations from a re-analysis of the deposited data

How the results depend on the processing

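The number of members called was 6, with 3 by DESeq2, 0 on both log2(FPKM) scales, 10 with the trend on transcript length removed and 0 at an adjusted p under 0.01. With 1 library left out it ran from 0 (without V1) to 10 (without C0). For the other fork genes the number was 5, with 3 by DESeq2, 1 on each FPKM scale, 8 with the length trend removed, 3 at 0.01, and 1 to 8 with 1 library left out. Over all genes it was 302, with 478 without a filter, 168 by DESeq2, 56 on log2(FPKM + 1), 72 on log2(FPKM + 0.1), 491 with the length trend removed, 128 at 0.01, 466 at 0.1, and 129 to 633 with 1 library left out. These were 181 higher and 121 lower genes, against 170 and 200 with library sizes alone and 19 and 37 on log2(FPKM + 1). The labels do not say whether library numbers pair the samples. The correlation of deviations was −0.0038 between C0 and V0. With 2 libraries per group, C1 and V1 give the same value by construction, so pairing was not decided. With the replicate block 11 members, 10 other fork genes and 796 genes were called. Signs reversed only for genes that were not called. With library sizes alone the log2 fold change was −0.0092 for POLA2, −0.0054 for POLE, −1.9e-05 for POLE3, −0.0061 for RPA1 and −0.0090 for TOP1. With the length trend removed it was 0.012 for POLA1 and −0.040 for POLE4. With 1 library left out it ran from −0.095 to 0.078 for POLA1, −0.028 to 0.075 for POLA2, −0.092 to 0.061 for POLD1, −0.15 to 0.23 for POLD4, −0.046 to 0.098 for POLE, −0.025 to 0.17 for RFC3 and −0.024 to 0.069 for TOP1. The cause of these differences was not tested.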
